A study of Mus musculus with 9 samples.

Results

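The regions described here are stretches of acetylated chromatin that were called as 1 unbroken H3K27ac island in wild type (WT) naive CD8+ T cells and as 3 or more separate islands in cells lacking Tcf1 and Lef1 (dKO). They were chosen by position: WT and dKO islands with 1 bp or more in common were combined into merged regions, and those on chromosomes 1 to 19 were kept when they held exactly 1 WT island, narrower than 30 kb, and at least 3 dKO islands. Of 76633 merged regions, 45871 were autosomal with exactly 1 WT island under 30 kb, and 1125 of these (2.45%) were fragmented in dKO. Another 30080 met 1 dKO island, 5271 met 2 and 9395 met none. The numbers and widths of islands in the lists chose the members, so these values are given as a description and without a test.

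H3K27ac was measured by ChIP-seq in CD8+ T cells sorted from mouse spleen as GFP+ TCRbeta+ CD62Lhi CD44lo-med. All mice carried the hCD2-Cre transgene, whose activity is highest in mature T cells, and a Cre-activated GFP reporter at Rosa26. WT mice were Tcf7+/+ Lef1+/+, and dKO mice were Tcf7 fl/fl Lef1 fl/fl, recorded in the labels as Tcf1-/-Lef1-/-. The 9 samples were 4 WT and 3 dKO H3K27ac libraries and 1 input library of each genotype, and the H3K27ac libraries of a genotype were represented by 1 pooled list of islands. A spread between replicates could therefore not be computed, and no p-value is given. The 95% intervals on ratios cover counting error only and hold no spread between replicates. Reads that carry no molecular identifier may repeat 1 molecule, so the intervals may be too narrow even for counting error.

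H3K27ac, acetylation of lysine 27 on histone H3, is deposited by the acetyltransferases p300 and CBP at active promoters and enhancers. Long runs of it, including super enhancers, usually join several enhancers and sometimes a promoter. Tcf1 (encoded by Tcf7) and Lef1 are related high mobility group factors that bind a shared core motif, and in T cells they guard lineage identity and act on chromatin structure. An island caller joins neighbouring windows of enriched reads, and here islands of 1 list were never closer than 600 bp, so a wide island splits wherever a stretch of that length or more falls below the enrichment threshold.

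The sequences of 3 gaps, the stretches that separate dKO islands inside a WT island, are printed as examples of AT-rich gaps, and 2 windows from pieces that stayed acetylated are printed for comparison. Each is 150 bases of mouse build mm9, read 5′ to 3′ on the plus strand, and capitals mark exact matches to the Tcf/Lef core ATCAAAG or its complement CTTTGAT. Windows were centred on a match where the gap or piece held one, and otherwise on the middle of the gap.
Il6st gap, chr13:113260226-113260375: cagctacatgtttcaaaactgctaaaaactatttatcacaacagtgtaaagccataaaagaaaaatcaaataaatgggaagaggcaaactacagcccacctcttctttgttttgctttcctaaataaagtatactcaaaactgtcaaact
Ptprc gap, chr1:140056576-140056725: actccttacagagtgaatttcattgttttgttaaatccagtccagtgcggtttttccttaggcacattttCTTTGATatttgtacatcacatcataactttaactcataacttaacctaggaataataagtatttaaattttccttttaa
Jarid2 gap, chr13:44891836-44891985: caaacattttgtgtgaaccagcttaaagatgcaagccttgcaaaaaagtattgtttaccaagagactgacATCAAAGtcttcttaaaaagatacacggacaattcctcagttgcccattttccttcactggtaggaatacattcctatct
Ptpn22 kept piece, chr3:103665207-103665356: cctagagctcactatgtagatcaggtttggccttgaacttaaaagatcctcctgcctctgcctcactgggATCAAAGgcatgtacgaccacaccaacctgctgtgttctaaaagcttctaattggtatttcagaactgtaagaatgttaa
Il6st kept piece, chr13:113249205-113249354: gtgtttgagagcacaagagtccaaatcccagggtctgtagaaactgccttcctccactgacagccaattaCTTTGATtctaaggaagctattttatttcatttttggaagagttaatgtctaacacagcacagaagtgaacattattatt

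These 3 gaps were each 600 bp wide and AT-rich. The GC content of the whole gap was 32.3% at Il6st, 30% at Ptprc and 33.3% at Jarid2, below the 41.1% of all gaps (SD over gaps 4.99), so these are among the more AT-rich ones. The kept pieces shown for Ptpn22 and Il6st had 42.2% and 44.4% GC. The Ptprc and Jarid2 gaps held 1 Tcf/Lef core each, and the Il6st gap held none.

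The pooled WT list had 65563 islands with 82668007 counts (211 per kb of island), and the pooled dKO list had 82213 islands with 57665047 counts (134 per kb). Raw counts below are therefore set beside ratios in which each count was first divided by the total of its own list. Islands over the promoters of Tcf7 and Lef1 held 50113 and 53027 counts in WT and 18207 and 11100 in dKO, which is not a check of the deletion, since a histone mark can remain at a deleted gene. All 7 T cell and CD8 lineage markers had a promoter island in both lists, with 4244 to 29951 counts in WT. Of the markers of other cells, all 3 of B cells, all 4 of myeloid cells, 1 of 2 of NK cells and Cd4 also had one in both lists, with 431 to 12334 counts in WT and 178 to 7414 in dKO, and Ncr1 was at 0 in both. The part of other cells in the results was not tested.

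The fragmented islands were broken mostly by narrow gaps, and most of their width stayed under dKO islands. Of the 1125 members, 896 (79.6%) were met by 3 dKO islands, 180 (16.0%) by 4, 41 by 5, 6 by 6 and 2 by 7, which made 3663 dKO islands in all. The WT islands had a median width of 14000 bp (SD 6318, range 2600 to 29800). A median of 80.9% of their width (SD 12.2, range 29.9% to 95.9%) was still under a dKO island. Summed over the 16.8 Mb of WT islands, 80.6% was kept, 13.9% lay in gaps between dKO islands and 5.46% lay in ends that no dKO island reached.

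Most gaps were as narrow as the caller allowed. Of 2538 gaps, 1446 (57.0%) were 600 bp wide, 83.7% were at most 1000 bp and 6.97% were at least 2000 bp, with a widest of 11600 bp. In 766 members (68.1%) no gap was wider than 1000 bp. Both ends of the WT island lay under dKO islands in 493 members, 1 end was lost in 475 and both were lost in 157. In 572 members the dKO islands also ran past the WT ends. The widest dKO piece took a median of 50% of the dKO width. Within a member the densest piece had a median of 1.45 times the counts per kb of the sparsest, and at most 10.7 times.

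**Figure D1:**
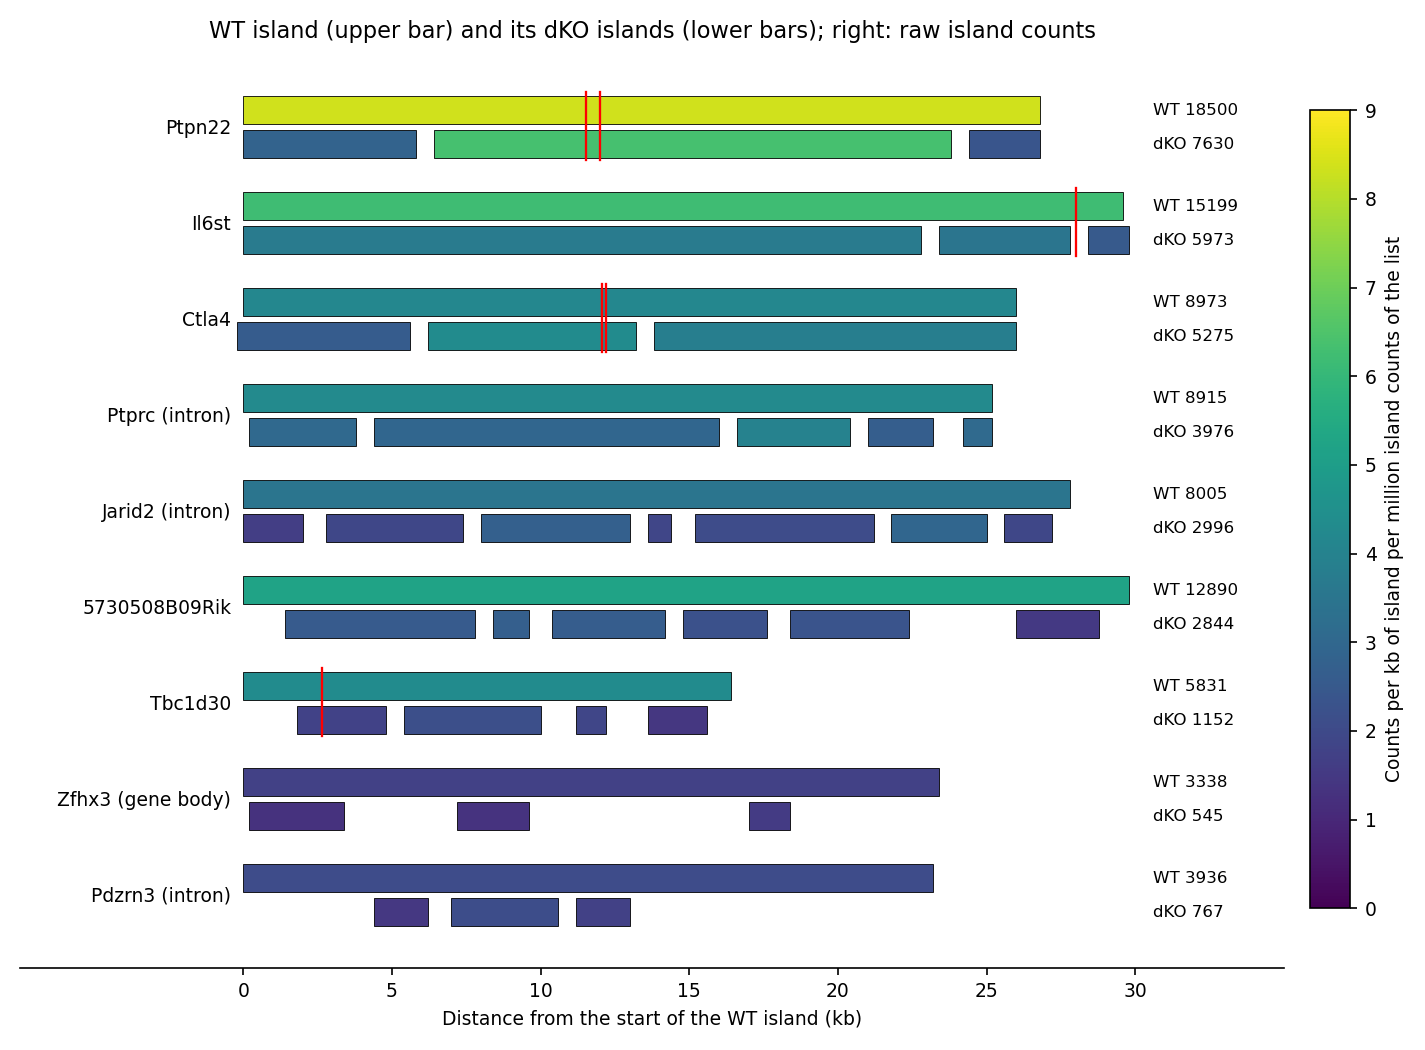
WT island (upper bar) and dKO islands (lower bars) of 9 fragmented regions, drawn to scale against the distance in kb from the start of the WT island, coloured by counts per kb scaled to the total of each list. Red lines are transcription start sites and raw counts stand at the right. Ptpn22 and Il6st were cut by 600-bp gaps only, 5730508B09Rik and Jarid2 broke into 6 and 7 pieces, and Zfhx3 and Pdzrn3 kept 29.9% and 31% of their width.

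The number of members depended on the distance at which islands count as separate. When islands at most 1000 bp apart were first joined in both lists, 326 WT islands were fragmented, and 68 of the 1125 members (6.04%) overlapped one of them. With a distance of 2000 bp, the count was 164. The mirror rule, 1 dKO island under 30 kb that was 3 or more islands in WT, gave 361 regions, so that fragmentation in dKO was counted 3.12 times as often as its mirror. That ratio was 1.48 after joining at 1000 bp and 1.21 at 2000 bp. The dKO list also had fewer counts in all, and the part of depth in these numbers was not tested.

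Wide islands broke most often, and among islands of 10 kb or more the sparsely marked ones did. The share fragmented was 0.668% of WT islands under 10 kb (276 of 41336), 15.7% of those from 10 to 20 kb (591 of 3757) and 33.2% of those from 20 to 30 kb (258 of 778). The mirror shares of dKO islands were 0.112%, 5.30% and 17.4%. The rule asks for at least 3 pieces with gaps of 600 bp or more between them, which wider islands have more room for. Part of the rise with width is therefore built into the rule, and how much was not tested. Among the islands of 20 to 30 kb, split into 4 classes of equal size by WT counts per kb, the share went from 47.2% in the sparsest class to 42.3%, 23.7% and 19.5% in the denser ones. Among those of 10 to 20 kb it was 21.2%, 17.4%, 12.2% and 12.1%. Under 10 kb the order did not hold, with 0.502%, 0.649%, 0.889% and 0.630% from the sparsest class to the densest.

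**Figure D2:**
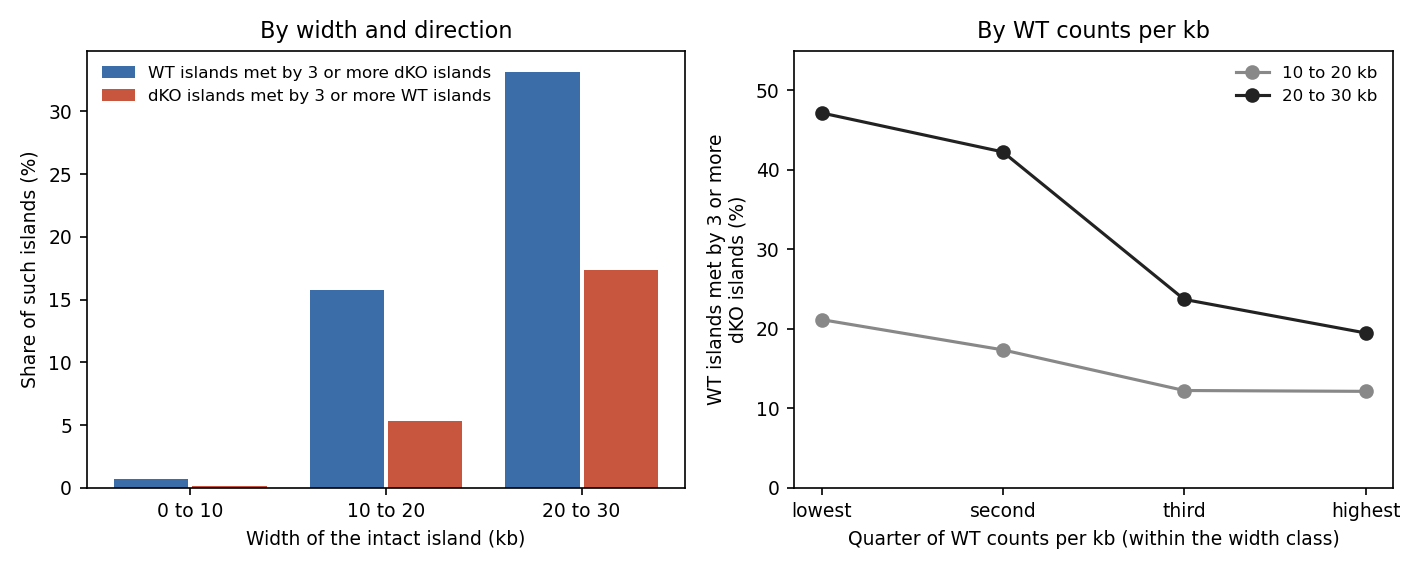
Left, the percentage of single WT islands met by 3 or more dKO islands (blue bars) and of single dKO islands met by 3 or more WT islands (red bars), by width in kb. Right, the percentage of WT islands fragmented in 4 classes of WT counts per kb, from 47.2% in the sparsest to 19.5% in the densest at 20 to 30 kb (black) and from 21.2% to 12.1% at 10 to 20 kb (grey).

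The 7 members of 29800 bp, just inside the width limit, had median counts of 5842 in WT and 3867 in dKO, and the 3 regions of 30000 bp just outside it had 4953 and 3042. In all, 218 WT islands of 30 kb or more were split into at least 3. The 896 members with 3 dKO islands had a median WT width of 13000 bp, 2212 WT counts and 1256 dKO counts, and the 5271 regions with 2 dKO islands, just outside, had 7200 bp, 1154 and 721.

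The fragmented islands held somewhat fewer counts in dKO and, after scaling, about as many per kb of called island. The raw counts had a median of 2427 in WT (range 262 to 18500) and 1348 in dKO (range 277 to 7630). Per kb of island, the median was 161 counts in WT and 113 in dKO. Scaled to list totals, the log2 dKO/WT count ratio had a median of -0.25 (SD 0.39 over 1125 members), beside -0.07 over all 44698 autosomal regions with islands in both lists. The log2 ratio of counts per covered kb had a median of -0.0019 (SD 0.23), beside -0.02. This ratio sets the dKO pieces against the whole WT island, with the stretches that became gaps and lost ends. The lists give no WT count for the kept stretches alone, so density within those was not compared. With both counts divided by the WT width, the median was -0.25. A lower count can come from fewer cells with the mark or from less mark per cell, which cannot be told apart in bulk samples.

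By counts, 193 members (17.2%) were at least 1.5 times lower in dKO, beside 14.2% of all regions with islands in both lists, and 14 (1.24%) were at least 1.5 times higher, beside 11.2%. By counts per covered kb, 26 members (2.31%) were lower by that much, beside 4.42%, and 5 (0.444%) were higher, beside 1.17%. The rule used this contrast, since a WT island that loses width to gaps loses counts too, and nothing is read from these shares. The count ratio was below 0 in 913 members (81.2%), beside 56.2% of all those regions. The ratio per covered kb was below 0 in 569 members (50.6%), beside 53.3% of WT islands met by 1 dKO island. All 14 members that were higher by counts had dKO islands that extended at least 1000 bp beyond the WT island. Over all members the upper quartile of this extension was 1200 bp, and dKO counts beyond the WT island enter the ratio. The highest of the 14 was region 833 in an intron of Tmem57, with 406 WT counts against 1482 dKO counts. Its merged region reached 13600 bp past the WT island.

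**Figure D3:**
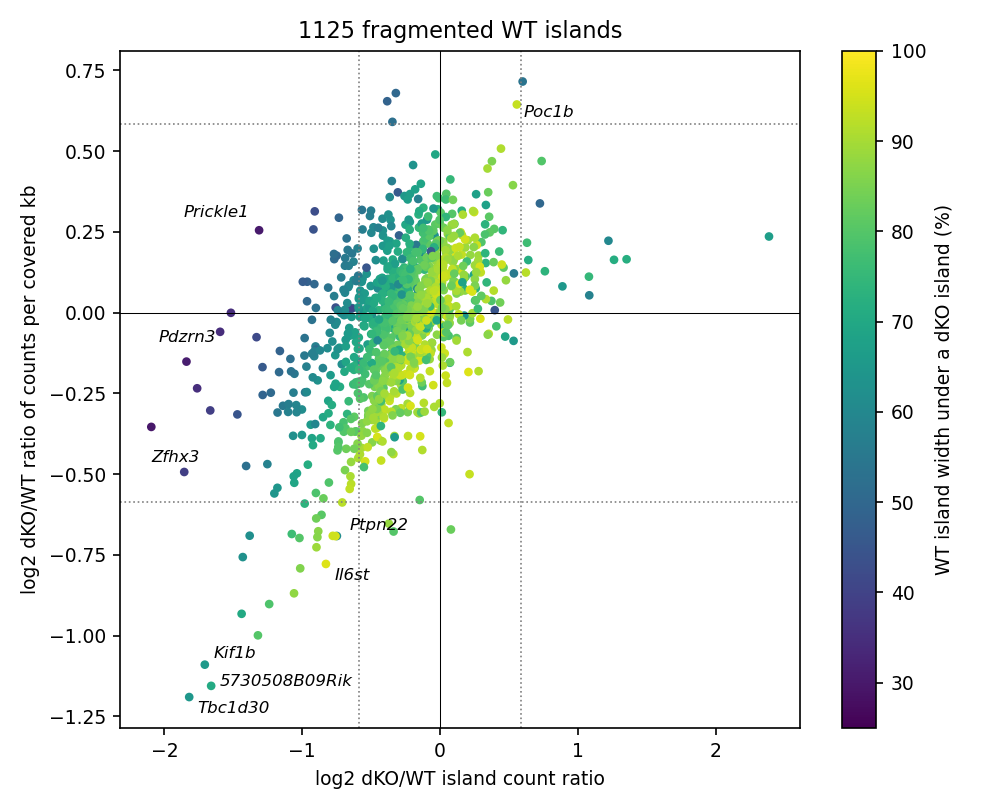
Log2 dKO/WT ratio of counts per covered kb (vertical) against that of island counts (horizontal), both scaled to list totals, for the 1125 fragmented islands, coloured by the percentage of WT width under a dKO island. Dotted lines mark 1.5 times either way, and the points centre at -0.25 on the horizontal axis and near 0 on the vertical, with Zfhx3 furthest to the left and Tbc1d30 lowest.

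The members with most WT counts lay at several T cell genes. Ptpn22, a phosphatase that restrains T cell receptor signalling, had an island of 26.8 kb (chr3:103652201-103679000, over its promoter) with 18500 counts in WT and 7630 in dKO. After scaling, the dKO list was still the lower, with a log2 count ratio of -0.76 (95% counting interval -0.80 to -0.72) and -0.69 per covered kb. The dKO pieces were 5.8, 17.4 and 2.4 kb wide with 945, 6357 and 328 counts, and the promoter lay in the middle, densest piece. It was parted from its neighbours by gaps of 0.6 kb.

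Il6st encodes gp130, the receptor subunit shared by interleukin 6 and related cytokines. Its island of 29.6 kb (chr13:113237201-113266800) held 15199 counts in WT and 5973 in dKO. The dKO count was again the lower after scaling, with a log2 ratio of -0.83 (-0.87 to -0.78) and -0.78 per covered kb, although 95.9% of the width was kept. The pieces were 22.8, 4.4 and 1.4 kb wide with 4879, 890 and 204 counts. The annotated start site lay 28 kb into the island, inside the second of its 600-bp gaps, with a dKO piece within 1 kb on either side.

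Other members with high WT counts differed widely in how much they held in dKO. The uncharacterised gene 5730508B09Rik had an island of 29.8 kb that overlapped an exon (chr3:127558001-127587800) with 12890 counts in WT and 2844 in dKO. It was broken into 6 pieces of 1.2 to 6.4 kb, with a widest gap of 3.6 kb, and had a log2 count ratio of -1.66 (-1.72 to -1.60) and -1.16 per covered kb.

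Celf2, an RNA-binding splicing regulator, had 10840 counts in WT and 5190 in dKO over its promoter island (chr2:6623401-6652200), a log2 count ratio of -0.54 (-0.59 to -0.50). The island of Ccr9, a chemokine receptor for homing to the gut, held 10615 and 6917 counts (chr9:123662401-123690400), a log2 ratio of -0.10 (-0.14 to -0.05) and -0.02 per covered kb. Of these members, Ccr9 came closest to the same scaled level in both lists, and 5730508B09Rik was the furthest from it.

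Of the 6 members with most pieces, with ties ordered by WT counts, 4 lay outside promoters. Over all members 31% overlapped a promoter, so nothing is read from this number. Jarid2, a component of Polycomb repressive complex 2, had an intronic island of 27.8 kb (chr13:44884201-44912000) with 8005 WT counts and 2996 dKO counts, cut into 7 pieces of 0.8 to 6.0 kb by 6 gaps of at most 0.8 kb. Its log2 count ratio was -0.90 (-0.96 to -0.84). The other member with 7 pieces covered the promoter of Ap3m1, an adaptor complex subunit, with 3326 and 1187 counts and 60.7% of its 17.8 kb kept. These 2 members differed in how they broke: at Jarid2 the widest gap was 0.8 kb, and at Ap3m1 it was 2.2 kb.

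Of the 6 members with 6 pieces, the 4 with most WT counts were 5730508B09Rik, the promoter island shared by Hlcs and Ripply3, and 2 intergenic islands. Hlcs encodes holocarboxylase synthetase, and its island had 6297 counts in WT and 3316 in dKO with 74.0% kept and a log2 ratio per covered kb of 0.01. The intergenic island nearest to Cox10 (chr11:63911801-63933400) had 4626 and 1660 counts and -0.47 per covered kb. The intergenic island nearest to Rnf144a, 573921 bp from its start site (chr12:26499201-26526200), had 4448 and 1482 counts, 62.2% kept and -0.38 per covered kb. The Hlcs island had lost width while its ratio per covered kb was 0.01, whereas both intergenic islands had lower values per covered kb.

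The 6 members with the least width kept had most of their WT width outside dKO islands. The lists hold no counts outside islands, so how much signal remained there is not known. Zfhx3, a zinc finger homeobox factor, had an island of 23.4 kb in its body (chr8:111295401-111318800) with 3338 counts in WT and 545 in dKO, of which 29.9% was kept. Its log2 count ratio, -2.10 (-2.23 to -1.96), was the lowest of all members, and per covered kb it was -0.35. Prickle1, a planar cell polarity gene, kept 30.1% of 16.6 kb, with 2240 and 629 counts and 0.25 per covered kb. Pdzrn3, an E3 ubiquitin ligase, kept 31% of 23.2 kb with 3936 and 767 counts, and its lost ends together measured 14.6 kb.

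The remaining 3 were an intergenic island (chr3:68637801-68649400, 34.5% kept, 1629 and 376 counts), one at Kcnmb4, a subunit of calcium-activated potassium channels (34.7% kept, 3662 and 753 counts), and one at 1700025G04Rik (35% kept, 2536 and 618 counts). None of the 6 lay directly over an annotated start site, and the nearest was 1700025G04Rik at 244 bp. Their WT islands had 123 to 170 raw counts per kb, and their dKO pieces had 78 to 112. After scaling to list totals, their log2 ratios per covered kb ranged from -0.35 to 0.25.

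By counts per covered kb, the 3 lowest members were Tbc1d30, 5730508B09Rik and Kif1b. Tbc1d30, with a Rab GTPase-activating domain, had 5831 counts in WT and 1152 in dKO over its promoter island (chr10:120745601-120762000), with log2 ratios of -1.82 (-1.91 to -1.73) for counts and -1.19 per covered kb. Kif1b, a kinesin motor, had 4029 and 861 counts (chr4:148647601-148661400), -1.71 by counts (-1.81 to -1.60) and -1.09 per covered kb. In these members the dKO pieces were also sparser, after scaling, than the whole WT island.

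The 3 highest per covered kb were small islands. The log2 ratio per covered kb was 0.72 at Chsy1, with 262 WT and 277 dKO counts, 0.68 at Mpp6, with 503 and 281, and 0.65 at Phf11, with 1118 and 598. All 3 WT islands were 7.8 kb wide or narrower. Poc1b, a centriole protein, had a high ratio on a wide island, with 6479 counts in WT and 6652 in dKO over the promoters of Poc1b and Phxr2 (chr10:98576001-98600000). The ratio on the log2 scale was 0.56 (0.51 to 0.61) for counts and 0.64 per covered kb, with 93.3% of the width kept.

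Members were found at promoters less often than unbroken islands of similar width. Of the 1125, 349 (31%) overlapped a protein-coding promoter (1 kb either side of a start site), 200 (17.8%) an exon but no promoter, 185 (16.4%) lay in introns and 391 (34.8%) between genes. At 10 to 20 kb, 31.3% of the 591 fragmented islands overlapped a promoter, against 45.9% of the 1765 met by 1 dKO island. Intergenic islands made up 36.9% and 25.7%, and the median distance to a start site was 14626 and 3566 bp. These fragmented islands also had fewer WT counts per kb, 161 against 190, which moves with place, and its part was not tested. At 20 to 30 kb, promoters were in 42.6% of 258 fragmented and 54.9% of 268 unbroken islands, with 185 and 239 counts per kb.

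Promoter sequence inside members was covered more than the rest, as it was inside unbroken islands. Of the promoter bp in members 88.8% was kept, against 80.2% elsewhere in them. At 10 to 20 kb, the promoter bp kept was 87.6% in fragmented islands and 94.1% in unbroken ones, against 78.7% and 88.0% elsewhere in them. Members hold gaps by rule and unbroken islands hold none, so nothing is read from the lower shares in members. By single start site positions, 367 of 388 (94.6%) were under a dKO island. Some part of the promoter window was under a dKO island for 390 of 397 promoters (98.2%), beside 96.7% in unbroken islands of 10 to 20 kb, but most gaps were narrower than the window and could not have removed it whole. The 7 promoters left without a dKO island included those of Hdac5, a class IIa histone deacetylase, Gapdhs, the sperm glyceraldehyde-3-phosphate dehydrogenase, and Macf1, a cytoskeletal linker, on WT islands of 4355, 6268 and 3523 counts.

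In most members with a promoter the widest dKO piece lay over it, and in most the densest did. The 450 pieces over a promoter had a median width of 4800 bp and 152 counts per kb, and the 3213 other pieces had 2600 bp and 103 counts per kb. In 335 members with pieces of both kinds, the promoter pieces were denser in 272, with a median log2 ratio of promoter to other pieces of 0.69 (SD 0.80). Of the 349 members with a promoter, the widest piece lay over it in 230 (65.9%) and the densest in 273 (78.2%). The exceptions include Il6st, where the piece of 22.8 kb lay upstream of the promoter. They also include Ramp3, a receptor activity-modifying protein, where the promoter piece had 105 counts per kb and its neighbour of 21.0 kb had 150. A wider piece has more room to meet a promoter window, and over all members the widest took a median of 50% of the dKO width. The part of width in these shares was not tested, and promoter density was not compared with unbroken islands.

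**Figure D4:**
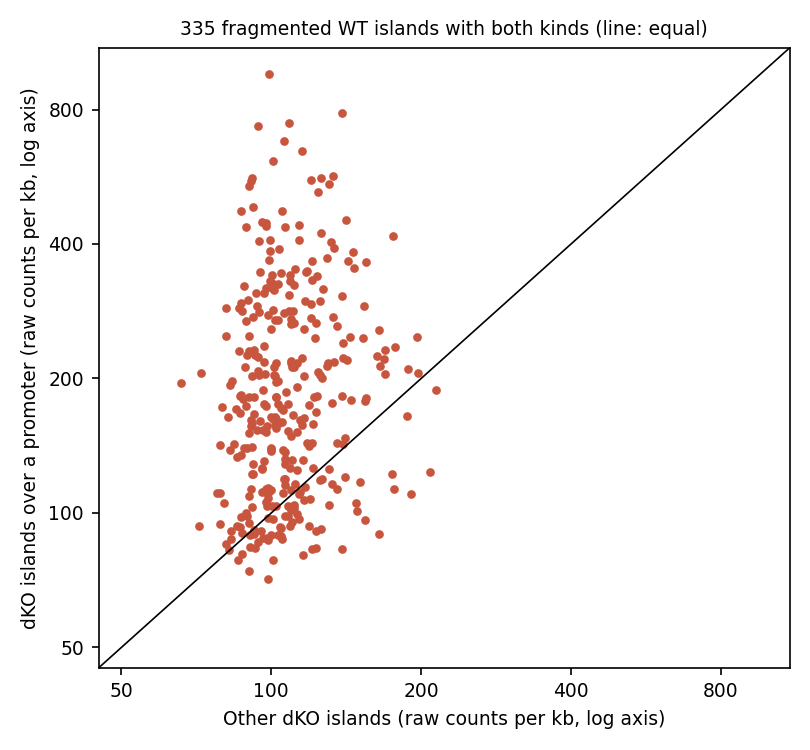
Counts per kb of dKO pieces over a promoter against the other pieces of the same member, for the 335 fragmented islands with both kinds, on log axes with a line of equality. The points lie above the line in 272 members.

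The gaps were poorer in G and C than the pieces around them. The GC content was 41.1% in gaps, 46.0% in kept stretches and 43.8% in lost ends. Member by member, the gaps had the lower GC content in 1070 of 1125 (95.1%), with a median difference of -5.18 percentage points (SD 3.10). The ratio of observed to expected CpG was 0.186 in gaps and 0.223 in kept stretches. Unbroken islands of at least 10 kb had 47.8% GC in the part under dKO islands.

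The same difference was present where the genotypes were exchanged and where only 1 gap was made. In the 361 mirror regions, the gaps between WT islands had 43.8% GC and the kept stretches 47.3%, and the gaps were lower in 324 (89.8%), by a median of -4.23 points. In WT islands of at least 10 kb met by 2 dKO islands, the gap was lower in 1413 of 1596 (88.5%). Low GC content thus accompanied gaps in either genotype, and ChIP-seq coverage can itself vary with base composition, which was not tested here. Most gap sequence was unique: 95.8% of the 50-base sequences in gaps occurred once in mm9, against 97.6% in kept stretches. In 1103 members (98.0%) at least 2 gaps had at least 50% of these sequences unique. With a cut of 90% this held in 877 members (78.0%). The part of mapping in the gaps was not tested.

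**Figure D5:**
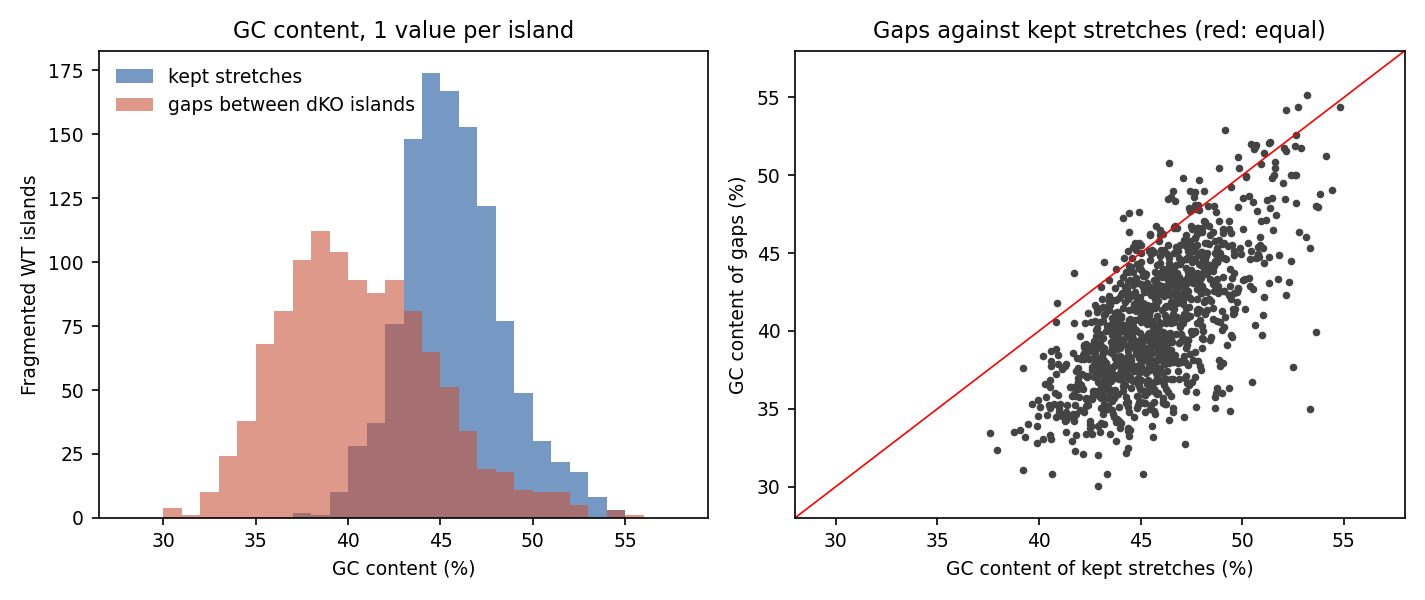
Left, histograms over the 1125 fragmented islands of the GC content in percent of their kept stretches (blue) and of the gaps between their dKO islands (red). Right, gaps against kept stretches island by island, where 1070 points lie below the red line of equal GC content.

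Per 10 kb, the Tcf/Lef core was about as frequent in the gaps as in the kept pieces. The core is poor in G and C, as gaps are, and the densities were not adjusted for base composition. Exact ATCAAAG matches on both strands numbered 400 in gaps (1.71 per 10 kb), 2386 in kept stretches (1.76) and 177 in lost ends (1.93), and unbroken islands of at least 10 kb had 1.53. Of windows of 600 bp, 8.90% in gaps, 9.94% in kept stretches and 7.53% in unbroken islands held at least 1 match. The shorter core TCAAAG, which lies within the longer one, gave 7.91 per 10 kb in gaps and 7.90 in kept stretches. In 304 members (27%) a gap held a core and in 903 (80.3%) a kept stretch did, with kept stretches covering several times the sequence.

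Of 2 other motifs of T cell factors searched on both strands, the Runx motif TGTGGTT was at 2.80 per 10 kb in gaps and 2.74 in kept stretches. The Ets motif CAGGAAG was at 3.27 in gaps and 4.67 in kept stretches, and it was present in 15.8% and 24.9% of 600-bp windows. Away from promoters the Ets densities were 3.18 and 4.71, and in the mirror regions they were 3.44 and 4.98. The Ets motif is richer in G and C than the Tcf/Lef core, as kept stretches are, and a match is no evidence that a factor was bound.

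Members lay at genes of 7 of the 8 lists searched. Each gene list is set beside 8.67%, the share of the 15272 protein-coding genes with a single WT island between the body and 50 kb upstream that held a member (1324 genes). Of 16 such genes among the naive and T-lineage transcription factors, 7 (43.8%) held a member: Bach2, Satb1, Ikzf1, Foxo1, Foxp1, Tox and Ikzf2. The count was 3 of 11 for naive homing and survival, 3 of 17 for the T cell receptor complex and its proximal signalling, 4 of 13 for inhibitory receptors and feedback, 4 of 12 for cytokine signalling, 2 of 15 for chromatin and genome architecture and 2 of 15 for regulators of other lineages. None of 15 effector genes held one, with 62 islands between them, too few genes to set 0 apart from 8.67%. Genes differ in their number of islands. Per island, 4.90% were fragmented for the naive transcription factors (143 islands), 5.66% for homing and 5.63% for the T cell receptor list. The share was 7.55% for inhibitory receptors and 5.56% for cytokine signalling, beside 2.42% over all genes. For chromatin and genome architecture it was 2.56% and for regulators of other lineages 2.86%, both near the share over all genes. Wide islands were fragmented more often, and these lists were not matched for island width. The part of width in these shares was not tested.

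Satb1, a chromatin organiser of T cells, was represented by an intergenic island 38586 bp away (chr17:52011201-52036600) with 10173 counts in WT and 5177 in dKO. Its log2 count ratio was -0.45 (-0.50 to -0.41). Bach2, a repressor that holds T cells in a naive state, had 4889 and 2931 counts over its promoter and -0.22 (-0.28 to -0.15). The island upstream of Ikzf1, which encodes Ikaros, had 4067 and 2725 counts, a ratio of -0.06 (-0.13 to 0.01) that counting error alone spans.

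Of the receptor and signalling genes, Ptprc, the phosphatase CD45, had 5 pieces in an intronic island (chr1:140040201-140065400) with 8915 counts in WT and 3976 in dKO, a log2 count ratio of -0.65 (-0.70 to -0.59). Prkcq, the protein kinase C theta of the immune synapse, also had 5 pieces, with 4871 and 3021 counts and -0.17 (-0.24 to -0.10). S1pr1, the receptor that lets T cells leave lymphoid organs, had 3221 and 2160 counts at an intergenic island and -0.06 (-0.14 to 0.02). The island near the integrin gene Itga4 had 1213 and 776 counts and -0.12 (-0.25 to 0.01). Between these 4 genes, the number of pieces did not follow the ratio: Ptprc and Prkcq both had 5, with different ratios.

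Inhibitory genes held members on either side of 0. Ctla4, an inhibitory receptor, had a promoter island (chr1:60953801-60979800) with 8973 counts in WT and 5275 in dKO, 95.4% kept, and a log2 count ratio of -0.25 (-0.30 to -0.20), and a second member just beside it with 1406 and 775 counts. Inpp4b, a phosphoinositide phosphatase that damps PI3-kinase signalling, held 4 members in its body, with 4474, 3808, 1926 and 1207 counts in WT and 1249, 1125, 706 and 629 in dKO. The 2 with most counts had log2 ratios per covered kb of -0.999 and -0.902, and the others had -0.13 and -0.15. The member in the neighbourhood of Cd160, a receptor of NK and CD8+ T cells, had 2457 counts in WT and 2159 in dKO and a log2 count ratio of 0.33 (0.25 to 0.42), and the one of Cd244, a SLAM family receptor, had 699 and 544 and 0.16 (-0.0037 to 0.32).

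Of the cytokine and chromatin genes named here, Tet2 had the lowest ratio after Il6st. Tet2, a dioxygenase that oxidises 5-methylcytosine, had 4426 counts in WT and 1762 in dKO over its promoter island and a log2 count ratio of -0.81 (-0.89 to -0.73). The island of the Il6ra neighbourhood lay over the promoter of Atp8b2, with 5334 and 3854 counts and 0.05 (-0.01 to 0.11). The one near Crebbp, an acetyltransferase for this mark, was small, with 665 and 611 counts and dKO islands that reached 5000 bp past the WT ends.

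Of the 15 genes with islands in the list of regulators of other lineages, Itgam and Sykb (Syk) held a member. The intergenic island in the Itgam neighbourhood had 2912 counts in WT and 2241 in dKO, a log2 ratio of 0.14 (0.06 to 0.22). The start site nearest to it was that of Trim72, 13909 bp away. Islands over the Itgam promoters themselves held 7262 counts in WT and 4613 in dKO. Syk, a kinase of B and myeloid cells, had 2012 and 1189 counts in an island in its body and -0.24 (-0.34 to -0.14). The myeloid marker Lyz2, lysozyme, had a member between its body and 50 kb upstream, with 1242 counts in WT and 652 in dKO and -0.41 (-0.55 to -0.27). The islands over the promoters of Csf1r, Lyz2 and Cd14 had 580 to 1057 counts in WT and 178 to 453 in dKO. Whether myeloid cells bear on the Itgam value was not tested.

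Across the genome, 750 protein-coding genes had a member in the body, 65 had at least 2, 13 at least 3 and 3 had 4. The 3 were Ext1, a heparan sulfate polymerase, Inpp4b, and Lpp, a focal adhesion protein. The 4 members of Ext1 summed to 12268 counts in WT and 6341 in dKO with 74.8% of the width kept and a median log2 ratio per covered kb of 0.04. Those of Inpp4b summed to 11415 and 3709 with 73.2% kept and -0.53, and those of Lpp to 7667 and 5141 with 86.6% kept and -0.03. Ext1 and Inpp4b kept nearly the same share of width. By these medians, the dKO pieces were sparser than the whole WT islands at Inpp4b and not at Ext1.

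Genes of lower expression in dKO held members more often than those of higher expression. The gene lists were taken by name from RNA-seq of the same cells, without their values. Of 219 genes listed as lower and with a single WT island, 41 (18.7%) held a member, and of 248 listed as higher, 32 (12.9%) did, beside 8.67% of all. At matched widths of 10 to 20 kb, the fragmented share of islands was 20.6% (32 of 155) near the lower genes, 9.29% (13 of 140) near the higher genes and 15.1% (475 of 3153) near all. At 20 to 30 kb, it was 45.7% (16 of 35), 27.5% (11 of 40) and 32.3% (211 of 653). These are counts without a test, and the numbers in the widest class are small.

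Members near the lower genes also had lower ratios. The median log2 count ratio was -0.57 over 54 members near lower genes and -0.17 over 36 near higher genes, beside -0.25 over 918 near any gene, and per covered kb it was -0.21, 0.08 and -0.01. Unbroken islands of at least 10 kb had the same order, with -0.25 near lower genes, 0.04 near higher genes and -0.09 near all. Among the lower genes, Tbc1d30 held 3 members (13869 counts in WT, 5225 in dKO), Dennd4c 2 (10485 and 3384), Kif1b 2 (9214 and 2616) and Map3k5, a stress-activated kinase, 2 (7885 and 3362). Il6st, Inpp4b and 5730508B09Rik were among the same genes, and Ctla4, Cxcr6 (through the Ccr9 island) and Poc1b were among the higher genes.

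Positions listed for the same genotypes were compared by overlap only. The lists of accessible sites, super enhancers and hubs used here hold those linked to genes whose expression differed between the genotypes, among them 49 WT- and 88 dKO-prepotent super enhancers and 49 WT- and 35 dKO-specific hubs, and not every such region, so no statement is made about such regions at large. Accessible sites came from DNase-seq clusters, named C1, C2 and C4, and chromatin hubs came from Hi-C, whereas the WT- and dKO-prepotent super enhancers were defined on these same H3K27ac samples and are not independent evidence of direction. Members overlapped 43 times with WT-prepotent super enhancers, which is 3.82% of members against 1.64% of all single WT islands under 30 kb. Of WT islands of at least 10 kb inside those super enhancers, 26.8% (40 of 149) were fragmented, against 10.8% (19 of 176) inside dKO-prepotent ones and 18.7% (849 of 4535) of all. In WT-specific hubs the share was 35.2% (25 of 71), and in dKO-specific hubs it was 12.5% (3 of 24).

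The medians within these positions had the direction of their names, which for the super enhancers is how they were defined. The median log2 count ratio was -0.53 over the 43 members in WT-prepotent super enhancers and 0.08 over the 29 in dKO-prepotent ones, and per covered kb it was -0.22 and 0.18. Over 27 members in WT-specific hubs it was -0.51, and over 4 in dKO-specific hubs 0.17. Of the mirror regions, 33 (9.14%) lay in dKO-prepotent super enhancers and 7 (1.94%) in WT-prepotent ones. Of all single WT islands under 30 kb, 2.44% and 1.64% did, and of those of at least 10 kb, 3.88% and 3.29%. The mirror regions are dKO islands with a median width of 16400 bp, and no share of dKO islands of like width was computed. The part of width in this contrast was not tested. The direction of the mirror regions, too, goes with how the super enhancers were defined. Examples of dKO-prepotent members were the intron of Zfp704, with 5551 counts in WT and 4195 in dKO and a log2 ratio of 0.12 (0.06 to 0.17), and Tacc1, with 5579 and 3043 and -0.35 (-0.42 to -0.29), so single members did not all follow the median.

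All 15 overlaps with listed accessible sites, in 13 members, lay under a dKO piece and none in a gap or lost end, where 80.6% of the members' width was under a dKO piece. The 3 members of C1 were at Ctla4, Poc1b and Scn3a, with a median log2 count ratio of 0.05, the 3 of C2 were at Upb1, Syk and Zfp629, with -0.24, and the 7 of C4 had -1.01 by counts and -0.47 per covered kb. Of the hit islands of at least 10 kb, 31.8% of 22 were fragmented in C4, 16.7% of 18 in C1 and 23.1% of 13 in C2. These are small numbers, beside 18.7% of all WT islands of that width. The C4 members included an island upstream of Dennd4c (chr4:86350401-86379400) with 6451 counts in WT and 1697 in dKO, of which 52.4% was kept and 12.4 kb of ends was lost, a log2 ratio of -1.41 (-1.48 to -1.33). They also included Kif1b and the Inpp4b island with most counts, described above.

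Of the other C4 members, Fntb, a farnesyltransferase subunit, had 5896 counts in WT and 2750 in dKO and a log2 ratio of -0.58 (-0.65 to -0.52). The intergenic site named for Tmevpg1, 169298 bp from the start of Ifng (chr10:118047401-118072800), had 5462 and 3292 counts, 94.5% of its width kept and -0.21 (-0.27 to -0.15). Ifng, the gene for interferon gamma, held no member within 50 kb. The C4 islands thus ranged from ones cut by narrow gaps, at Fntb and the Tmevpg1 site, to ones that lost much of their width, at Dennd4c and Kif1b.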

How the data were processed

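The authors aligned reads to mm9 with Bowtie2 2.2.5 after FastQC, kept uniquely mapped reads with mapping quality above 10, and called islands with SICER 1.1 on pooled libraries, with windows of 200 bp, gaps of 400 bp and an FDR threshold of 0.01. The deposited values are raw counts of reads per island, not scaled for depth. Whether duplicates were removed is not given in the sources used here. Start positions were counted from 0 and are printed from 1. The WT list holds 82668007 counts and the dKO list 57665047, which limits precision at sparse islands. The 9 samples were grouped by the genotype and antibody in the labels, and the 2 inputs carry no values of their own.

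Islands sharing 1 bp were merged, and counts were summed per merged region and list and divided by the list total. Ratios of at least 1.5 either way were counted, with 95% intervals from the log of a ratio of Poisson counts. Genes and sequence came from GENCODE vM1 on NCBIM37 (mm9), gene name synonyms from a RefSeq table used for names only. Motifs were counted as exact matches on both strands. Python 3.11.15, numpy 2.4.6, pandas 2.3.3, scipy 1.17.1 and numba 0.67.0 were used, and the merging and counting code was tested on simulated data. Members described singly were the 6 with most dKO islands, the 6 with least width kept, the 6 with most WT counts, the 3 highest and 3 lowest per covered kb with at least 500 counts, at most 3 per gene list, at most 4 per list of positions, and those at the width limit. Region 833, Ext1, Lpp, Map3k5, Cd160, Cd244, Lyz2 and the second member at Ctla4 were chosen after their values were seen, as were the lost promoters named. The members and the 8 gene lists were chosen with earlier results of these data known. Alternatives covered the overlap, island threshold, joining distance, width limit, number of dKO islands, scaling, promoter definition and motif. Some members and sequences that met these rules are not reported here.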

Additional observations from a re-analysis of the deposited data

How the results depend on the processing

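Of 66 alternative values, 29 stayed within 1.5 times the main count or, for other values, within the main value's own interval (95% for medians and shares), and 37 moved. The 1125 fragmented islands became 613 with islands of at least 3 CPM, 326 and 164 with islands joined up to 1000 and 2000 bp, 624 under a limit of 15 kb, 6396 with at least 2 and 229 with at least 4 dKO islands. The mirror count of 361 became 229, 220 and 136, 146, 3265 and 50 under the same settings, and 571 without a width limit. The share of width kept became 84%, 65.7% and 57.6%, 77.5%, 81.8% and 78.9%, and 82.9% without a limit. The median log2 count ratio became -0.20 with at least 3 CPM, -0.52 and -0.58 after joining, -0.17 with at least 2 and -0.34 with at least 4 dKO islands, and -0.18 both when scaled to totals of shared regions and with the median of shared regions set to 0. The ratio per covered kb became 0.017 and 0.049 after joining, -0.022 without a limit, 0.036 at 15 kb, 0.014 and -0.030 with at least 2 and 4 dKO islands, 0.069 by shared totals, 0.016 with the median set to 0, and -0.25 with the WT width as denominator. Single start sites were under dKO islands in 94.6%. GC stayed lower in lost stretches. The Tcf/Lef density difference between lost and kept stretches was near 0 throughout, at 0.013 per 10 kb and -0.017 away from promoters. Leaving out gaps in which under 50% of 50-base sequences were unique, chosen after seeing the data, left 1103. No paired analysis was possible because each genotype had 1 pooled list. For the same reason no replicate could be left out.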
